A study of Homo sapiens with 30 samples.

Results

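The 6 immunoprecipitation (IP) libraries compared here, 3 from PCIF1 knockout (KO) cells and 3 from control cells, are 6 of the 30 samples of the series, and were chosen by their labels and not by any measured value. All come from MEL624, a human melanoma cell line. The control cells were wild type and carried a random single guide RNA (sgRNA), the KO cells carried a knockout of PCIF1, and no other allele or agent is named. Each preparation started from 200 ug of total RNA, taken through mRNA purification and the exonuclease step that keeps capped 5' ends, and all 6 were pulled down with antibody 4, a mouse monoclonal antibody against N6-methyladenosine (m6A). The 6 inputs of the same cells, 3 per genotype, are given as background. The libraries of a group are described as biological replicates, but whether the KO replicates came from more than 1 clone is not given in the sources used here, and the first stage of the study used a single KO clone. The p-values below therefore measure the spread between these samples, and an effect of the clone cannot be told apart from one of the knockout.

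PCIF1 is the methyltransferase that adds a methyl group to the N6 position of an adenosine at the first transcribed position of a capped mRNA, which turns 2'-O-methyladenosine (Am) into m6Am. Antibodies against m6A bind both m6Am at the cap and m6A inside the mRNA, and the internal mark is made by the METTL3 and METTL14 complex and not by PCIF1. Messenger RNAs that start with G or C have no adenosine at that position, and the mRNAs of ribosomal proteins start with C followed by a run of pyrimidines, the 5' terminal oligopyrimidine (TOP) motif.

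Every value below is relative to its own library. The deposited values are log2 CPM (reads scaled to a common library total) for the 5' end of 16009 genes, called starts here, so that a library in which some starts take fewer reads must show more in others. A loss or gain of pulled-down RNA as a whole cannot be read from them.

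The sequences at the start are given for coding genes that gained or lost most read share. Shown are the 8 largest losses and 4 of the 8 largest gains of read share. These 4 are the coding genes among the gains. The gains not shown are short non-coding RNA genes and the mitochondrial ribosomal RNA MT-RNR2, so the printed gains do not stand for all 8. The ranking covers genes with a symbol and an adjusted p under 0.05. Each window is given 5' to 3', with 10 bases before and 20 bases from the annotated first base. That base is the start of the GENCODE 44 canonical transcript (hg38). Capitals mark the annotated first base or, in the last 3, the whole TOP pyrimidine run.
FTH1: gacccgcaggGccagacgttcttcgccgag, chr11:61967615-61967644, minus strand
HNRNPA2B1: ctctagcggcAgtagcagcagcgccgggtc, chr7:26200727-26200756, minus strand
ENO1: cggcgcggacAgtatctgtgggtacccgga, chr1:8878667-8878696, minus strand
YBX1: ctgtcccgccAttctcgctagttcgatcgg, chr1:42682408-42682437, plus strand
MT2A: gctgcactccAccacgcctcctccaagtcc, chr16:56608574-56608603, plus strand
ATF4: ccacggcagcCatttctactttgcccgccc, chr22:39520552-39520581, plus strand
EIF5A: cggcgcctgcGtactaagacccgtgtgcag, chr17:7307618-7307647, plus strand
UBB: agcccggagcAtttaggggcggttggcttt, chr17:16381081-16381110, plus strand
DRAP1: cgcgacgggcGggcggcgagcaggcccggg, chr11:65919416-65919445, plus strand
RPL37A: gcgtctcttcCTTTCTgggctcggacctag, chr2:216498834-216498863, plus strand
RPS15A: ccctcccgtcCTCTTTCCgccatctttccg, chr16:18790315-18790344, minus strand
RPS9: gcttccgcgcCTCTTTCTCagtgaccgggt, chr19:54200848-54200877, plus strand
The first 8 took a smaller share of the reads in the KO IPs and the last 4 a larger one. HNRNPA2B1, ENO1, YBX1 and MT2A are annotated to start with A in both GENCODE and RefSeq. The GENCODE start of ATF4 is C and that of EIF5A is G, while RefSeq starts both with A, and UBB starts with A in GENCODE and G in RefSeq, so that the first base of a gene is uncertain where annotations differ. FTH1 and DRAP1 start with G in GENCODE. Across 9683 protein-coding genes with a start in both, the first base was the same in 88.5%.

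The reads behind these values differed between the groups. Control IPs held 4035815 to 4625190 reads in the listed starts and KO IPs 1753164 to 2177874, with inputs between 2836120 and 4094070. Values of single starts agreed less well among KO IPs (Pearson r of log2 CPM 0.92 to 0.93 across starts) than among control IPs (0.97). Within each group, every pair of libraries differed by more than sampling noise. The lower depth goes with the genotype in all 6 libraries, and its part in the results was not tested.

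PCIF1 itself was read first. Its start (ENSG00000100982, chromosome 20, 45934683 to 45948023, plus strand) gave 30.1, 23.7 and 26.0 CPM in control and 35.4, 41.0 and 28.7 CPM in KO IPs. The KO value of 28.7 lies below the highest control value, and the log2 difference of 0.39 ± 0.17 (standard error, SE) did not pass (adjusted p = 0.0798). It passed without KO replicate 3 (0.53), in the fit over 12 libraries (0.39), with plain library totals (0.42) and with limma-voom (0.40). Under ribosomal protein centring it turned to -0.12, which did not pass (adjusted p = 0.58). The edited position is not given, and a 5' end can lie outside it, so the labels are not checked by these values.

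The first question was how the pulled-down 5' ends shift as a whole. Of 16009 starts, 7060 (44.1%) differed between KO and control IPs at an adjusted p under 0.05 (limma, 3 against 3 libraries). Of these, 3366 were higher in the KO IPs (21.0% of all starts) and 3694 lower (23.1%). The 3 KO and 3 control values did not overlap for 8744 starts (54.6%), 4158 above and 4586 below. When each library was centred on its ribosomal protein mRNAs, the median of all starts moved by -0.51, and the split became 1523 higher and 7189 lower. Every direction below is therefore relative to the deposited scaling, and a rise smaller than that shift turns into a fall under this centring.

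The IPs moved more than the inputs of the same cells. The interquartile range of the starts was -0.61 to 0.63 in the IP comparison (log2, KO minus control) and -0.29 to 0.25 in the inputs, where 1798 starts (11.2%) were called, 890 higher (5.56%) and 908 lower (5.67%). Of the 3366 starts higher in the KO IPs, 491 (14.6%) were also higher in the KO inputs and 126 were lower there. Of the 3694 starts lower in the KO IPs, 547 (14.8%) were also lower in the KO inputs and 100 were higher. The difference between IP change and input change was called for 4605 starts (28.8%), and it had the direction of the IP change for 1830 of the 3366 (54.4%) and 2179 of the 3694 (59.0%). Of the changes over 4-fold, the input was called the same way for 155 of 541 such rises (28.7%) and 132 of 334 such falls (39.5%).

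**Figure D1:**
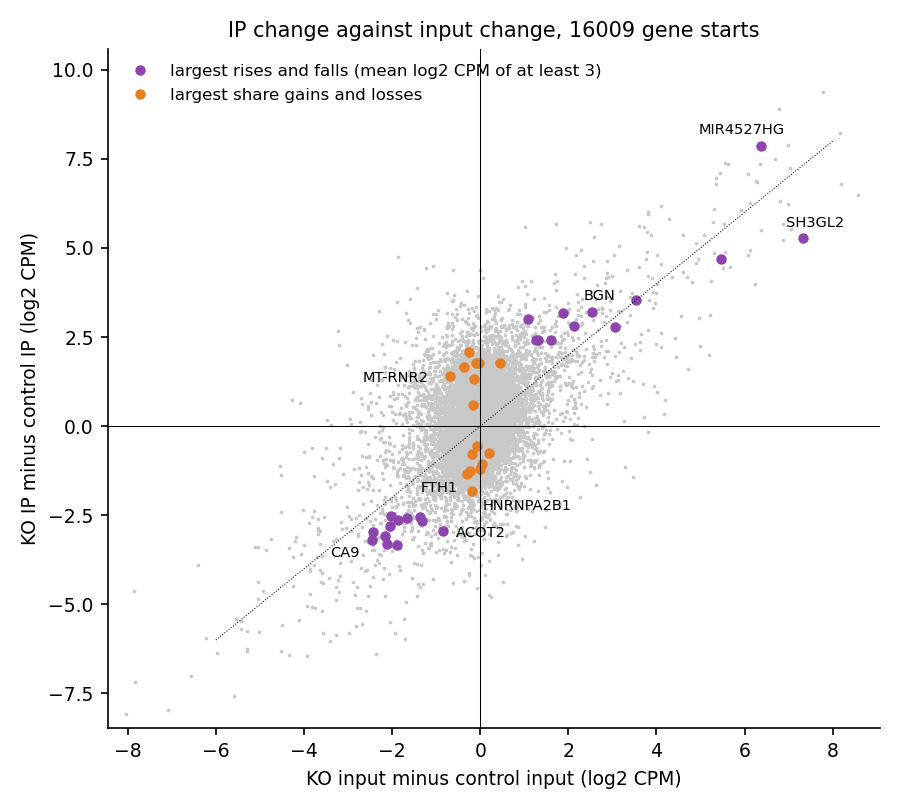
Each grey point is 1 of 16009 starts, with the KO minus control difference of the inputs on the horizontal axis and of the IPs on the vertical axis (both log2 CPM), and the dotted line marks equal change. Purple points are the 12 largest called rises and 12 largest called falls among starts apart from other genes with a mean log2 CPM of at least 3, from MIR4527HG at 7.85 to ADGRG1 at -3.35 in the IPs, and all were called the same way in the inputs. Orange points are the 16 largest gains and losses of read share among called genes with a symbol. Of these, MT-RNR2 (-0.69) and SNORD68 (0.44) were called in the inputs, and HNRNPA2B1 (-0.18) and RPL37A (-0.36) are examples of the others.

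Starts with an annotated A held fewer of the pulled-down reads in KO cells. Among reads of protein-coding genes, A starts took 49.9%, 50.0% and 50.4% in the control IPs and 42.6%, 43.1% and 43.4% in the KO IPs. The groups do not overlap, and the mean difference was -7.04 points (50.1% ± 0.244 against 43.0% ± 0.399, SD, n = 3 each). The inputs of both genotypes lay lower, at 37.2% ± 0.217 for control and 37.6% ± 0.607 for KO, and the KO IPs stood between the control IPs and the inputs. An exact two-sided permutation test gave p = 0.1, the smallest that 3 against 3 can give (adjusted p = 0.1 over 4 bases).

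C starts took a larger share in the KO IPs. In coding genes they took 13.3%, 13.4% and 13.3% in the control IPs and 19.2%, 18.5% and 18.6% in the KO IPs, against 23.8% and 23.6% on average in the inputs. G starts took 36.3% ± 0.194 in the control IPs and 37.9% ± 0.175 in the KO IPs, against 38.7% and 38.5% in the inputs. For both bases the KO values lay above all control values and on the side of the inputs (exact p = 0.1 each). Over all classes of gene the A share was 48.4% ± 0.223 and 40.1% ± 0.442. With the first base of the gene record, its outermost 5' end, in place of the canonical start over all classes, the difference was -3.47 points in place of -8.34.

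**Figure D2:**
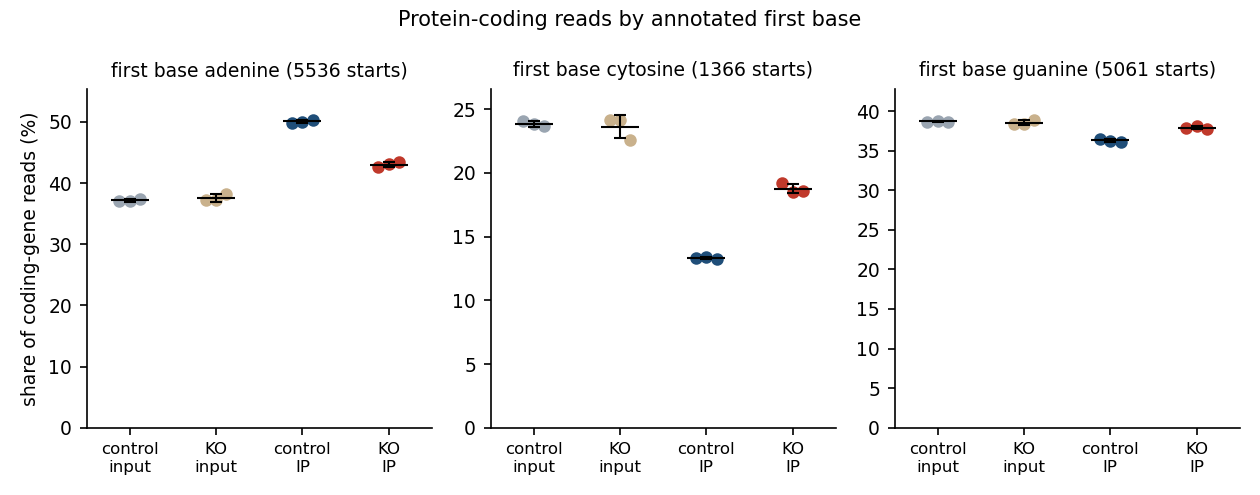
Points are libraries, and the horizontal axis gives the 4 groups of 3, with black bars for the mean and SD of the share of coding-gene reads (%, vertical axis from 0) at starts annotated with A, C or G. The A share is 50.1% in control IPs and 43.0% in KO IPs on average, with inputs at 37.2% and 37.6%, and the C share is 13.3% and 18.8% in the same IPs.

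The shift was spread over many A starts. Of 5536 coding starts with A, 2116 (38.2%) were lower in the KO IPs and 681 (12.3%) higher, with a median of -0.36. Of 5061 with G, 1041 (20.6%) were lower and 1005 (19.9%) higher, with a median of -0.04. Of 1366 with C, 264 (19.3%) were lower and 375 (27.5%) higher, with a median of 0.12, or -0.40 under ribosomal protein centring. In the inputs the 3 medians were -0.02, 0.01 and 0.00. With the first base of the gene record, the IP medians were -0.26 for A, -0.10 for G and -0.09 for C. There, 493 of 1882 C starts were lower and 374 higher, so the rise of C starts rests on the canonical start. A is the first base of 46.0% of all listed coding starts, of 61.7% of those that were lower in the KO IPs and of 32.7% of those that were higher. Among the 968 coding starts that were lower by over 2-fold with no call in the inputs, 68.0% start with A, and among the 553 that were higher by over 2-fold with no input call, 31.6% do.

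The same order was seen within each library, where scaling between libraries has no part. The median log2 CPM of 3394 A starts minus that of 3079 G starts (coding starts apart from other genes, with a mean log2 CPM of at least 3) was 0.32, 0.32 and 0.34 in the control IPs. In the KO IPs it was 0.00, -0.05 and -0.02. The inputs lay at -0.17 to -0.18 in control and -0.14 to -0.19 in KO cells. Control IPs thus had A starts above G starts, KO IPs had them about level, and inputs had them below (IP difference -0.35, exact p = 0.1, adjusted p = 0.15 over 3 pairs of bases). A minus C gave 0.12 in the control IPs and -0.25 in the KO IPs on average, against -0.61 and -0.59 in the inputs. C minus G was 0.21 and 0.23 in the IPs, with overlapping libraries (exact p = 0.4).

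**Figure D3:**
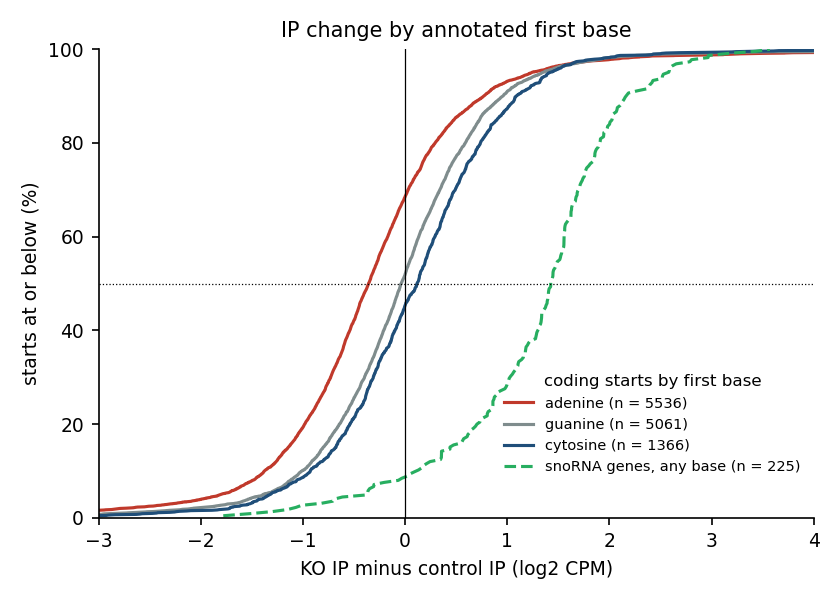
Cumulative share of starts (%, vertical axis) at or below each KO IP minus control IP difference (log2 CPM, horizontal axis drawn from -3 to 4), for coding starts with A, G or C and for snoRNA genes of any first base. The A curve crosses 50% at -0.36, G at -0.04 and C at 0.12, and the snoRNA curve at 1.43. The C value turns negative under ribosomal protein centring and with the first base of the gene record.

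A starts were also read by their neighbouring bases and by an internal motif. PCIF1 acts next to the cap whatever follows, whereas internal m6A sits mainly in the motif GGACT and its relatives. Medians were -0.37 with C before the A (4167 starts), -0.40 with T (874), -0.21 with G (368) and -0.30 with A (127), and -0.31 to -0.37 by the base after it. GGACT, searched on the transcript strand only in the first 200 bases of the canonical transcript, is present in 20.2% of coding starts. A starts with and without it both had a median of -0.36, and G starts had -0.05 and -0.04.

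The length of the transcript went with the size of the change. A starts had a median of -0.46 in the shortest of 4 equal bins of coding transcripts (up to 2007 bases), -0.43 and -0.32 in the middle bins and -0.22 in the longest (over 5198.75 bases). G starts had -0.12, -0.08, 0.03 and 0.01 in the same order. Starts of short transcripts also had more reads (median 55.0 reads per KO IP against 34.0 in the longest bin), and the part of this in the order was not tested.

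C starts were split by the TOP motif. A C followed by at least 4 further pyrimidines at the annotated first bases is found in 681 coding starts, 5.66% of all. Of these, 217 were higher in the KO IPs and 110 lower, with a median of 0.16, against 158 and 154 of 685 other C starts with a median of 0.05. Without ribosomal protein mRNAs, 621 TOP-like starts had 177 higher and 104 lower and a median of 0.13. These 3 medians all turned negative under ribosomal protein centring (-0.36, -0.47 and -0.39), where the A and G medians stood at -0.87 and -0.55.

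The classes of gene in the pull-down shifted as well. Protein-coding starts took 92.6%, 92.3% and 92.0% of the reads in the control IPs and 84.7%, 84.5% and 83.6% in the KO IPs, with inputs at 86.6% and 87.2% on average. Small nucleolar RNAs (snoRNAs), which guide the modification of ribosomal RNA, took 1.53%, 1.59% and 1.71% in the control IPs and 4.72%, 4.58% and 4.90% in the KO IPs, a ratio of means of 2.94. Their inputs lay at 4.57% and 4.33%, above the control IPs and overlapping the KO IPs. MicroRNA genes had 1.48% ± 0.0762 in control IPs, 2.69% ± 0.00791 in KO IPs and 2.96% and 2.75% in the inputs, which again overlapped the KO IPs and lay above the control IPs.

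For long non-coding RNAs (lncRNAs) and pseudogenes, all KO IPs lay above all inputs. lncRNAs took 2.48%, 2.59% and 2.56% in the control IPs and 4.04%, 3.90% and 4.06% in the KO IPs, against 2.65% and 2.67% in the inputs. Pseudogenes took 0.597% and 0.986% on average, against 0.779% and 0.795%. Genes of the mitochondrial genome took 0.777%, 0.987% and 1.07% in the control IPs and 1.57%, 2.0% and 2.28% in the KO IPs, while their input share was 1.12% in control and 0.727% in KO cells. In each of these 6 classes the 3 KO IPs did not overlap the 3 control IPs, and each exact test stood at its smallest possible p = 0.1.

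**Figure D4:**
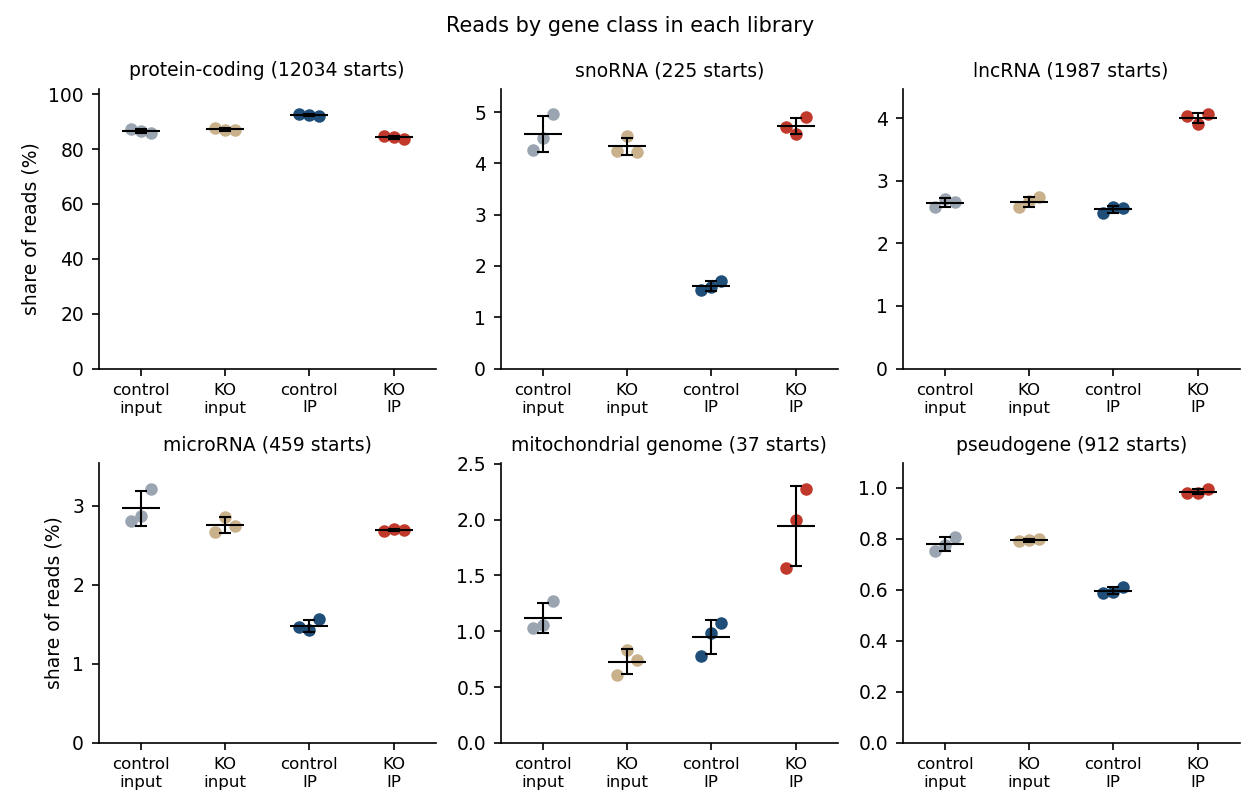
Share of all reads (%, vertical axis from 0) by gene class in each of 12 libraries (points), with mean and SD as black bars, for 4 groups of 3. snoRNA and microRNA shares are lowest in the control IPs (1.61% and 1.48% on average), while lncRNA, mitochondrial and pseudogene shares are highest in the KO IPs (4.00%, 1.95% and 0.986%).

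Start by start, the short RNA classes moved nearly one way. Of 225 snoRNAs, 144 were higher and 1 lower, with a median of 1.43 and an input median of -0.19. Of 459 microRNA genes, 211 were higher and 24 lower (median 0.92). Of 37 mitochondrial genes, 29 were higher and 0 lower (median 1.12, input median -0.55). Of 912 pseudogenes, 292 were higher and 50 lower (median 0.84), and of 1987 lncRNAs, 476 were higher and 174 lower (median 0.32, which turned to -0.20 under ribosomal protein centring). With a pseudocount of 5 CPM, which damps starts with few reads, the medians were 0.63 for snoRNAs, 0.38 for microRNA genes, 0.22 for pseudogenes and 0.12 for lncRNAs. The background over all starts is 21.0% higher and 23.1% lower.

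Most short RNA genes lie inside a longer gene on the same strand, and their reads cannot be told from those of the host. The start lies inside another gene or within 200 bases of its start for 98.2% of snoRNAs and 95.0% of microRNA genes. Restricted to starts apart from other genes, the difference in share was 0.00518 percentage points for snoRNAs and 0.00548 for microRNAs, 0.970 for lncRNAs, 0.335 for pseudogenes, 0.0797 for mitochondrial genes and -1.64 for protein-coding genes. Only 4 snoRNA, 23 microRNA and 7 mitochondrial starts remain there, with small shares in both genotypes. From control to KO IPs these went from 0.00169% to 0.00687% (snoRNA), 0.00668% to 0.0122% (microRNA) and 0.0632% to 0.143% (mitochondrial). SNORD68 (chromosome 16, 89561434 to 89561517, plus strand), which lies in the ribosomal protein gene RPL13, shows such a case. It gave 983, 836 and 1051 CPM in control and 3271, 3201 and 3319 CPM in KO IPs (log2 1.78 ± 0.10, adjusted p = 9.89e-07). MIR6797, in RPS19, gave 1.76 ± 0.10. The KO IPs were above all control IPs for both, and both were among the 8 largest gains of read share of called genes with a symbol.

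Among called genes with a symbol, the 8 largest losses of read share were those of FTH1, ENO1, YBX1, MT2A, ATF4, HNRNPA2B1, EIF5A and UBB. FTH1, which encodes the heavy chain of the iron store ferritin, took 2.21, 2.38 and 2.16% of all reads in the control IPs, more than any other start there, and 0.991, 1.02 and 0.900% in the KO IPs. All KO values are below all control values, and the log2 difference was -1.25 ± 0.13 (adjusted p = 2.62e-05) against -0.23 in the inputs (adjusted p = 0.227). ENO1, a glycolytic enzyme, gave 6776, 6605 and 6340.2 CPM in control and 2633, 2796 and 2361 CPM in KO IPs (-1.34 ± 0.10, adjusted p = 4.51e-06).

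HNRNPA2B1, an RNA-binding protein of the hnRNP family, fell most of these 8. It gave 2323, 2279 and 2247 CPM in control and 661, 646 and 619 CPM in KO IPs, with 873, 926 and 848 CPM in control and 822, 780.0 and 734 CPM in KO inputs. The IP groups are far apart, at -1.83 ± 0.08 (adjusted p = 3.00e-07), and the IP change differed from the input change (-1.65 ± 0.12, adjusted p = 1.75e-08). YBX1, an mRNA-binding cold shock protein, fell from 10837, 10785 and 12413 CPM to 7027, 8496 and 7634 CPM (-0.56 ± 0.12). MT2A, a metal-binding metallothionein, fell from 7289.7, 8119.7 and 7507 CPM to 4315, 4899 and 4184 CPM (-0.78 ± 0.11). The others were ATF4, the transcription factor of the integrated stress response (-1.21 ± 0.10), EIF5A, a translation factor (-0.75 ± 0.11), and UBB, a polyubiquitin gene (-1.06 ± 0.15). All 8 lay below their controls in every KO library, and none of the 8 was called in the inputs (-0.29 to 0.19).

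Among called genes with a symbol, the 8 largest gains of read share held ribosomal protein mRNAs and short RNAs inside such genes. They also held the mitochondrial ribosomal RNA MT-RNR2 and the mRNA of DRAP1. In KO IP columns 1 and 3 the most read start has no symbol (1.18% and 0.950% of the reads) and was not ranked. RPL37A, of the large ribosomal subunit, gave 2298, 2165 and 1905 CPM in control and 7628, 6591 and 5784 CPM in KO IPs (1.65 ± 0.12, adjusted p = 4.30e-06). RPS9, of the small subunit, went from 1262, 1038 and 880.2 CPM to 4135, 3785 and 2886 CPM (1.76 ± 0.16). RPS15A went from 1720.2, 1792 and 1679.6 CPM to 4531, 4203 and 4249 CPM (1.32 ± 0.09). These 3 carry the TOP runs printed above, and their input differences were -0.36, -0.02 and -0.13, none of which passed.

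MT-RNR2, the large ribosomal RNA of the mitochondrion, moved in opposite directions in IP and input. It went from 1987, 1946 and 2039 CPM in the control IPs to 4819, 5410.1 and 5660.0 CPM in the KO IPs (1.41 ± 0.10), while the inputs went from 1533, 1304 and 1482 CPM to 818, 1016 and 846 CPM (-0.69 ± 0.10, adjusted p = 1.23e-04). DRAP1, a repressor of RNA polymerase II transcription that is annotated to start with G, went from 4658, 4103 and 4709 CPM to 7310.0, 6853 and 6348 CPM (0.61 ± 0.11), a call that was lost under ribosomal protein centring (0.09).

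The largest fold rises came with rises in the inputs. Among called starts apart from other genes with a mean log2 CPM of at least 3, the 12 largest rises had a log2 IP difference of 2.41 to 7.85, and all 12 were also higher in the KO inputs (1.08 to 7.33). MIR4527HG, a non-coding host gene, had 2, 2 and 2 reads in the control IPs and 278, 284 and 214 reads in the KO IPs. That is a ratio of 273 with a 95% exact interval of 125 to 745, which covers counting error only, and the log2 input difference was 6.37 ± 0.25. SH3GL2, which encodes the endocytic protein endophilin A1, had 8, 3 and 6 and 108, 130 and 83 reads (ratio 39.8, 24.5 to 69.2), with 7.33 ± 0.48 in the inputs. BGN, the matrix proteoglycan biglycan, went from 13.1, 13.7 and 13.0 CPM to 143, 129 and 98.0 CPM (3.20 ± 0.15, input 2.53). ADAMTS1, a secreted metalloproteinase, gave 3.0 ± 0.22 with an input difference of 1.08, and ZFP42, a zinc finger gene used as a stem cell marker, gave 2.41 ± 0.17 with 1.61. RN7SL3, a 7SL RNA of the signal recognition particle family, has near-identical copies and its value of 2.41 ± 0.11 is uncertain. The KO IPs lay above all control IPs for each of the 12.

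The largest falls also went with the inputs. Within the same limits, the 12 largest falls had a log2 IP difference of -2.51 to -3.35 and an input difference of -0.84 to -2.45, and all 12 were called lower in the inputs. S100A4, a calcium-binding protein linked to cell motility, went from 74.6, 68.6 and 58.0 CPM in the control IPs to 6.45, 8.84 and 5.23 CPM in the KO IPs (-3.32 ± 0.21, input -2.13). CA9, a carbonic anhydrase induced by hypoxia, went from 56.2, 77.0 and 56.9 CPM to 4.98, 7.87 and 8.09 CPM (-3.20 ± 0.22, input -2.45). VGF, a secreted neuropeptide precursor, went from 561, 515 and 524 CPM to 90.3, 87.2 and 78.5 CPM (-2.65 ± 0.09, input -1.87). The KO values are below all control values in each.

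For some of these the IPs fell further than the inputs. In VGF the IP change differed from the input change by -0.77 ± 0.12 (adjusted p = 9.68e-05), and in AREG, an EGF receptor ligand, by -1.34 ± 0.22 (adjusted p = 1.22e-04). ACOT2, a mitochondrial thioesterase, had the smallest input change of the 12 (-0.84) with an IP change of -2.94 ± 0.30, on 9, 8 and 4 reads in the KO IPs. In CA9 the IP and input changes did not differ at the threshold (-0.75 ± 0.33, adjusted p = 0.101). The other falls were ADGRG1, SPHK1, COSMOC, ADAMTSL4, ELP2, TIE1 and SFN. Of the 12, S100A4, CA9, SPHK1, ADAMTSL4, AREG, VGF, TIE1 and SFN are annotated to start with A.

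Gene lists are described by their counts, against 21.0% higher and 23.1% lower over all starts. For lists of well-read coding genes the closer background is protein-coding starts with a mean log2 CPM of at least 3. Of these, 19.8% were higher and 35.3% lower, so a share of falls up to 35.3% is no excess in such a list. Of the members named, RPS15A, SNHG5, the mitochondrial genes, MRPS28, MRPL9, HNRNPA3, SNRPB, H2AC6 and PSMB9 have a start that adjoins or lies inside a further gene of the same strand, and their reads are uncertain. For counts split by start, the closer background is coding starts apart from other genes with a mean log2 CPM of at least 3. There, 47.1% of A starts were lower and 12.6% higher, and 24.8% of G starts were lower and 23.4% higher. The translation apparatus is given first. Of 79 cytosolic ribosomal protein mRNAs, 47 were higher and 10 lower, with a median of 0.54, which was 0.03 (32 higher, 24 lower) under centring on these same mRNAs. They took 2.76% ± 0.0858 of the reads in the control IPs and 5.30% ± 0.235 in the KO IPs, against 8.05% and 8.04% in the inputs. RPL5 gave 148, 169.6 and 168 CPM in control and 489, 488 and 550.2 CPM in KO IPs (1.65 ± 0.09, adjusted p = 9.33e-07), with an input difference of -0.06. RPLP0 (1.51 ± 0.08) and RPS2 (1.35 ± 0.08) also rose, and 60 of the 79 have a TOP-like annotated start. The 10 with A starts had 5 higher and 3 lower (median 0.32, which turns negative under ribosomal protein centring), and the 69 others had 42 higher and 7 lower (median 0.55).

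Other mRNAs of the TOP class had 13 higher and 2 lower of 20 (median 0.50, or -0.01 under that centring). PABPC1, the poly(A)-binding protein, gave 1283, 1267 and 1507 CPM and 3034, 2747 and 2725 CPM (1.07 ± 0.10), and NPM1, nucleophosmin, gave 1.06 ± 0.09. The 17 listed snoRNA host genes had 14 higher and 1 lower and a median of 1.05 (0.54 under that centring, 0.84 with a pseudocount of 5 CPM). GAS5, a host gene with a TOP start, went from 201, 245 and 194 CPM to 869, 744 and 811 CPM (1.93 ± 0.11, input 0.09), and SNHG5 gave 1.64 ± 0.10. Translation initiation factors had 8 higher and 10 lower of 35, with a median of 0.01 that changes sign between alternatives. Among them the 9 with A starts had 0 higher and 5 lower (median -0.88), such as EIF6 (-1.38 ± 0.13) and EIF2B3 (-1.25 ± 0.09), and the 26 others had 8 higher and 5 lower.

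Mitochondrial mRNAs of the 2 genomes went opposite ways. Of 13 mitochondrially encoded mRNAs, 8 were higher and 0 lower in the KO IPs (median 0.76, or 0.24 under ribosomal protein centring), while 9 were lower in the KO inputs (median -0.79). MT-ND5, a complex I subunit, gave 159, 218 and 209 CPM in control and 291, 412 and 436 CPM in KO IPs (0.95 ± 0.16). The mitochondrial values varied more between libraries than those of nuclear genes, and many of their starts adjoin a neighbouring gene. All 13 are annotated to start with A, although mitochondrial transcripts have no such cap.

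Nuclear genes for mitochondrial proteins held more falls than rises. Of 77 mitochondrial ribosomal protein mRNAs, 38 were lower and 5 higher (median -0.43). The 30 with A starts had 23 lower and 0 higher (median -0.80), and the 47 others had 15 lower and 5 higher (median -0.13). MRPL9 gave 311, 327 and 319 CPM in control and 129.6, 157 and 131 CPM in KO IPs (-1.20 ± 0.10, input 0.06), and MRPS28, with a G start, gave -1.60 ± 0.09 (input -0.52).

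Complex I subunits had 20 lower and 2 higher of 37 (median -0.39, or -0.26 without KO replicate 3). The nuclear subunits of complexes II to V had 22 lower and 6 higher of 37 (median -0.46, or -0.31 without KO replicate 3). ATP5F1B, the beta subunit of the ATP synthase, gave 1467, 1403 and 1448 CPM in control and 295, 349 and 332 CPM in KO IPs. Its log2 difference was -2.15 ± 0.09 (adjusted p = 2.39e-07), while its input difference was 0.01. UQCRB, a subunit of complex III annotated to start with C, went the other way, from 194, 211 and 199 CPM to 637, 601 and 617 CPM (1.62 ± 0.08, input -0.39).

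RNA-processing genes were mixed. The hnRNP list had 6 higher and 8 lower of 24, with a median of 0.01 that changes sign between alternatives (-0.51 under ribosomal protein centring). Its 13 A starts had 3 higher and 5 lower (median -0.04), and the 11 others had 3 and 3. PTBP1, a splicing repressor, fell from 377, 383 and 344 CPM to 133, 152 and 125 CPM (-1.43 ± 0.10), whereas HNRNPA3 rose from 477, 504 and 547 CPM to 1475, 1257 and 1258 CPM (1.38 ± 0.10). The annotated starts of these 2 are A and C. Core spliceosome genes had 20 lower and 5 higher of 39 (median -0.53, or -0.33 with a pseudocount of 5 CPM). Falls in this list were seen with and without an A start. Of its 13 A starts, 8 were lower and 2 higher (median -0.60). Of the 26 others, 12 were lower and 3 higher (median -0.49). SNRNP70, of the U1 particle, gave 598, 565 and 563 CPM and 271, 272 and 247 CPM (-1.13 ± 0.08), and SNRPB, an Sm protein, gave -1.34 ± 0.11 with an input difference of -0.69. The proteasome had 14 lower and 7 higher of 29 (median -0.24, or -0.36 without control replicate 3), with PSMB4 at -1.52 ± 0.09 and PSMA5 at -1.37 ± 0.12.

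Genes of adenosine methylation, readers included, were split by start. Of 26 writers, erasers and readers of m6A and m6Am, 11 were lower and 5 higher (median -0.34). The 12 with A starts had 8 lower and 0 higher (median -0.94), and the 14 others had 3 lower and 5 higher (median 0.40, which turns negative under ribosomal protein centring). ALKBH5, an m6A demethylase with a G start, gave 157, 143 and 166 CPM in control and 412, 393 and 355 CPM in KO IPs (1.32 ± 0.09). RBM15B, an adaptor of the methylation complex, gave 56.9, 49.9 and 65.3 CPM and 145, 148 and 143 CPM (1.35 ± 0.11). HNRNPA2B1, described above, is counted here as a reader. Cap synthesis, binding and removal genes had 7 lower and 5 higher of 25 (median -0.33, or -0.11 without KO replicate 3 and -0.15 with a pseudocount of 1 CPM), with the decapping activator DCP1A at -1.0 ± 0.14 and the cap-binding protein gene EIF4E2 at 0.96 ± 0.14.

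Replication-dependent histones were also split by start. Of 30, 9 were higher and 11 lower, with a median of -0.30 (-0.14 with a pseudocount of 5 CPM, -0.16 without KO replicate 3) and a median of 0.11 in the inputs. The 19 with A starts had 1 higher and 11 lower (median -0.45), and the 11 others had 8 higher and 0 lower (median 1.26). H2AC20, with an A start, went from 49.0, 38.1 and 41.2 CPM to 14.8, 15.2 and 14.4 CPM (-1.52 ± 0.15), and H2AC6, with a G start, from 11.7, 10.0 and 15.1 CPM to 45.7, 45.9 and 39.6 CPM (1.85 ± 0.18). The histone genes are near-identical copies, so that single values are uncertain. Proliferation genes had 14 lower and 6 higher of 30 (median -0.37). PCNA, the replication clamp, fell from 637, 651 and 690.1 CPM to 162, 172 and 157 CPM (-2.01 ± 0.08), further than its inputs (-0.89), and CCNB1, cyclin B1, rose (1.10 ± 0.11).

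Stress and signalling lists were mostly lower. Of 28 interferon-stimulated genes, 0 were higher and 15 lower (median -0.65, or -0.39 with a pseudocount of 5 CPM), with an input median of -0.22. The 19 members without an A start had 9 lower and 0 higher, against 6 and 0 of the 9 with one. IFITM3, a membrane restriction factor, gave 555, 573 and 608 CPM and 277, 287 and 238 CPM (-1.12 ± 0.09, input -0.55), and PSMB9, an immunoproteasome subunit, gave -1.31 ± 0.12 (input -0.22). The list is thinly read, with a median of 11.2 reads per KO IP. Integrated stress response genes had 14 lower and 5 higher of 26 (median -0.37), and the 11 with A starts had 8 lower and 0 higher. TRIB3, a pseudokinase induced by ATF4, went from 123, 123 and 123 CPM to 29.5, 39.0 and 37.3 CPM (-1.81 ± 0.12, input -0.88). p53 targets had 13 lower and 1 higher of 24 (median -0.42, input median -0.15), with BTG2 at -1.81 ± 0.17 (input -1.14) and CCNG1, with a C start, at 1.06 ± 0.10. In this list the IP change minus input change was called lower for only 4 of 24 and higher for 1. Over all starts it was called lower for 15.8% and higher for 13%.

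Glycolytic and chaperone lists held more falls than rises. Glycolysis and hypoxia-response genes had 15 lower and 4 higher of 27 (median -0.37). The 11 with A starts had 10 lower and 0 higher (median -1.16), and the 16 others had 5 lower and 4 higher (median -0.07). PFKP, a phosphofructokinase, gave 530.4, 524 and 511 CPM and 246, 244 and 210.1 CPM (-1.16 ± 0.09, input 0.14), and BNIP3, a mitophagy receptor, gave -1.16 ± 0.11. Heat shock and chaperone genes had 15 lower and 5 higher of 26 (median -0.42). HSPA8, the constitutive HSP70 with a C start, rose from 301, 340.1 and 362 CPM to 1332, 1401 and 1286 CPM (2.01 ± 0.09, input 0.10), whereas CCT2, of the TRiC chaperonin, with an A start, fell from 168, 186 and 173 CPM to 71.2, 79.0 and 80.2 CPM (-1.19 ± 0.09). Cholesterol synthesis genes had 4 lower (18.2%) and 2 higher (9.09%) of 22, both shares below those of all starts, with a median of -0.10 (-0.19 without KO replicate 1). Over the 20 lists, marker lists included, that hold at least 3 A starts and 3 others, the median of the A starts was below that of the others in 19, and the exception was dedifferentiated melanoma (-0.38 and -0.55). Among all coding starts A also had the lower median (-0.36, against -0.04 for G and 0.12 for C). The tally restates this order and is not separate support.

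Markers were read to check the label. Of 21 melanocyte lineage genes 8 are listed, with 1 higher and 3 lower in the KO IPs. MITF, the lineage transcription factor, gave 11.5, 12.9 and 11.5 CPM in control and 4.00, 3.0 and 5.80 CPM in KO IPs (-1.54 ± 0.30), on few reads and at an input difference of 0.01, and PAX3 rose in IPs (0.96 ± 0.14) and inputs (0.96). SOX10, TYR, PMEL and MLANA are not among the listed starts. All 20 genes of dedifferentiated melanoma are listed, with 8 lower and 4 higher. THBS1, thrombospondin, fell from 159.6, 188 and 170.4 CPM to 70.7, 57.5 and 65.3 CPM (-1.42 ± 0.11, input -0.03). The listed starts thus hold all 20 dedifferentiated and 8 of the 21 pigment cell markers. Being listed does not mean being well read, as NGFR, JUN, FN1, F2RL1 and ST3GAL6 stayed at or below 5.80 CPM in every IP. The most read of the 8 pigment cell markers is CDK2, and the tally does not show which markers are expressed. Of the markers of other cell types, 3 of 9 for keratinocytes, 2 of 10 for fibroblasts, 1 of 10 for leukocytes and 0 of 7 for endothelium are listed.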

How the data were processed

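The deposited table gives log2 CPM values made by the authors for the 5' end region of 16009 genes, 1 column per second-stage library. The build is hg38 and the tools named, per the submitters' processing notes, include edgeR 3.12.1, the counter featureCounts and the aligner HISAT2 2.0.4. Not given in the sources used here are the counted window, the annotation, the strand setting and any filter. The lowest value of all libraries was taken as 0 reads, and the CPM per read was fitted in each library. This turned 100% of the values into whole reads (tolerance 0.01), and shares and depths rest on those reads. The count added before the logarithm came out at 0.132 to 0.330 reads per library (mean 0.25). Column numbers 1 to 3 are not tied to the replicate letters of the labels, so columns were mapped to groups only.

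KO IPs and control IPs were compared in R 4.3.3 with limma 3.58.1 (mean-variance trend, 3 against 3 libraries, no other term), with Benjamini-Hochberg adjustment over all starts, called at an adjusted p under 0.05. The input comparison and the difference between IP and input change came from a limma fit over 12 libraries. The scripts were tested on simulated data, with 50 starts planted at each size of change. The limma fit called 6% of the 1.5-fold rises, 62% of the 2-fold rises, 36% of the 2-fold falls and 100% of the 4-fold rises. There 15809 starts were left unchanged, so these rates need not hold for the real libraries, but moderate changes can be missed. Shares were compared with exact two-sided permutation tests (SciPy 1.17.1), whose smallest p is 0.1. Of 16009 genes, 15903 matched GENCODE 44 by identifier and 14485 have a symbol, and 3478 starts lie inside a further gene of the same strand or within 200 bases of where it begins. First bases are those of the canonical transcript.

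Genes named are PCIF1 and the 12 largest log2 differences each way (symbol, called, mean log2 CPM of at least 3, no overlap of groups, start apart from other genes). Named too are the 8 largest gains and losses of read share (symbol, called), and per list at most 4 members, taken by lowest adjusted p. Some genes that this rule names are not reported here. The members, gene lists and rules were chosen with earlier results of these data known. Alternatives were the library scaling, filter, pseudocount, limma-voom, the 12-library fit, a block on the column number and each library left out. Reads carry no molecular identifiers, so intervals cover counting error only.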

Additional observations from a re-analysis of the deposited data

Results flagged for a closer look

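The IP change and the input change were both called, in opposite directions, for 6 of the 131 named genes, and the difference between them passed in each (limma, 12 libraries). Over all starts, the input was called the opposite way for 3.74% of the rises and 2.71% of the falls called in the IPs. The count of 6 is thus no result about the named genes as a set. Mitochondrial genes were higher in the KO IPs and lower in the KO inputs, with an IP change minus input change of 2.10 for MT-RNR2, 1.59 for MT-ND4L and 1.66 for MT-ND3 (log2). The same order was seen for UQCRB, a nuclear subunit of complex III, at 2.01. LSM4, of the U6 snRNA-binding complex, was lower in the KO IPs (-1.0) and higher in the KO inputs (0.40), a difference of -1.40. CYP51A1, of cholesterol synthesis, was lower in the KO IPs (-0.74) and higher in the KO inputs (0.36), a difference of -1.10. The calls in the IPs were lost for MT-ND4L (0.28) and MT-ND3 (0.24) when libraries were centred on ribosomal protein mRNAs.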

How the results depend on the processing

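Centring on ribosomal protein mRNAs gave 1523 starts higher and 7189 lower, in place of 3366 and 3694. The other settings gave 2413 to 3846 higher and 2754 to 4168 lower, with 2606 to 3086 higher and 2754 to 3640 lower when a library was left out. A block on the column number gave 3424 higher and 3911 lower. Over all starts, deviations of same-numbered control and KO IP columns had correlations of 0.02, -0.01 and 0.03. With few reads at many starts this cannot exclude a pairing, and the main fit used none. The difference in A share, -8.34 percentage points, was -7.43 with starts apart from other genes, -3.47 with the gene record, and -7.04 for coding genes only. Chosen after seeing the data, RefSeq starts gave -7.05 and coding starts apart without ribosomal protein mRNAs gave -6.12. With starts apart, the class differences were -1.64 in place of -8.02 (protein-coding), 0.00518 in place of 3.121 (snoRNA), 0.970 in place of 1.46 (lncRNA), 0.00548 in place of 1.21 (microRNA), 0.0797 in place of 1.002 (mitochondrial) and 0.335 in place of 0.389 (pseudogene). Starts apart were 4 of 225 snoRNAs, 23 of 459 microRNA genes and 7 of 37 mitochondrial genes, and the cause was not tested beyond these numbers. Of 131 named genes, those that were called kept their direction in every setting run. PCIF1 and DSC3, neither of them called, changed sign, PCIF1 to -0.12 under ribosomal protein centring and DSC3, a keratinocyte marker, to 0.50 without KO replicate 2, against -1.98 without KO replicate 3 (the range when a library is left out). DRAP1, MT-ND4L, MT-ND3, IDI1 and COL6A3 lost their call under ribosomal protein centring, and SQLE and COL6A3 when a library was left out. The KO IPs hold a median of 24 to 28 reads per start, which limits what can be seen at single starts.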

Other observations

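Starts were also grouped by chromosome. Chromosome 18 stood highest of the nuclear chromosomes in the IPs, with 92 of 270 starts higher (34.1%), 66 lower (24.4%) and a median of 0.19 (KO minus control, log2), and its input median was 0.26. Chromosome 20 stood lowest, with 78 of 420 starts higher (18.6%), 119 lower (28.3%), a median of -0.17 and an input median of -0.08. The largest rise named, MIR4527HG, and LINC01029 lie on chromosome 18, as do the falls of ELP2 and COSMOC.

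The reads were spread over starts in a slightly different way. The 10 most read starts held 7.27% to 7.41% of the reads in the control IPs and 6.28% to 6.76% in the KO IPs, and the 100 most read held 22.1% to 22.6% and 23.4% to 24.7%. Neither range overlaps between the genotypes, and no test was run on them.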
